A study of Mus musculus with 6 samples.

Results

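Microtubules are hollow polymers of α/β-tubulin heterodimers, and each of the α and β chains is encoded by several closely related genes, the tubulin isotypes. Most of the difference between isotypes lies in the acidic tail at the end of the chain, where enzymes add or remove tyrosine and glutamate. γ-Tubulin is not part of the microtubule wall but nucleates it within a ring complex. The genes described are 10 tubulin isotypes, chosen by symbol from the 29955 genes of the deposited expression table: the α-tubulin genes Tuba1a, Tuba1b, Tuba1c and Tuba4a, the β-tubulin genes Tubb2a, Tubb2b, Tubb3, Tubb5 and Tubb6, and the γ-tubulin gene Tubg1. All 10 passed the filter on low values and were among the 16378 genes tested.

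mRNA was profiled in primary mouse embryonic fibroblasts (MEFs) at passage 3, in 3 libraries labelled Rnf40+/+ and 3 labelled Rnf40-/-. RNF40 is an E3 ubiquitin ligase that monoubiquitinates histone H2B. The knockout cells came from embryos with loxP sites around exons 3 and 4 of both Rnf40 alleles and a Rosa26-driven, ubiquitously expressed Cre-ERT2, and were given 250 nM 4-hydroxytamoxifen (4-OHT) for 5 days followed by 3 days without it. Whether the Rnf40+/+ cells carried Cre-ERT2 or received 4-OHT for these libraries was not given in the sources used here, so deletion, Cre activity and drug cannot be told apart. Nor was it stated whether the replicates came from separate embryos or cultures, so the p-values measure the spread between libraries, which may be technical. The libraries held 17053436 to 26344170 reads on genes, and each of the 10 tubulin genes had between 259 and 26231 reads in every library.

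In normalized counts (reads divided by a size factor per library), the Rnf40 mRNA itself was at 1278, 1195 and 1096 in Rnf40+/+ and at 439, 519 and 487 in Rnf40-/- MEFs, 40.5% of the Rnf40+/+ mean (log2 fold change -1.30, SE 0.09, adjusted p = 4.25e-07, limma with Benjamini-Hochberg adjustment). The table holds one value per gene, so reads from the deleted exons could not be separated from the others. Of 10 fibroblast markers, all were detected in every library and 8 were lower in Rnf40-/- MEFs at an adjusted p under 0.05, where 24.1% of all genes tested were lower. Rnf40+/+ replicate 1 stood apart: with 1 added to each value, 531 genes were over 2-fold above all other libraries there, against 153 to 366 genes in the other libraries. By the chi-square of read counts per gene, replicate 3 was the control farthest from the others, at 28.5 and 25.8 against 7.91 between replicates 1 and 2. Without replicate 3, 5 of the 10 isotypes were lower and 0 higher, as with it. For single tubulin genes, results for which replicate 1 or 3 changed a call or a direction are given with and without it.

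How well reads can be assigned to 1 tubulin gene depends on how much sequence the genes share, so this was measured first. In the mm9 annotation, the coding sequences of Tuba1a and Tuba1b were 98.3% identical, those of Tuba1b and Tuba1c 97.9%, those of Tuba1a and Tuba1c 97.1% and those of Tubb2a and Tubb2b 96.5%. Tuba4a was 84.7% to 85.2% identical to the other α genes, and the remaining β pairs were 80.2% to 85.9% identical. The last 48 bases of the coding sequence, which in the α and β genes encode the acidic tail, are printed here because they show how the isotypes end and where Tuba4a departs from Tuba1c. The end of Tubg1 is given beside them for comparison and does not encode such a tail. The last codon before the stop is in capitals.
Tuba1c (chr15:98868393-98868440, plus strand): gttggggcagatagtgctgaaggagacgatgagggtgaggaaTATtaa
Tuba4a (chr1:75212197-75212244, minus strand): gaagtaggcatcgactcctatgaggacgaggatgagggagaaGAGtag
Tubb2a (chr13:34166337-34166384, minus strand): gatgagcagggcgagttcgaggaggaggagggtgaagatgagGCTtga
Tubb2b (chr13:34219340-34219387, minus strand): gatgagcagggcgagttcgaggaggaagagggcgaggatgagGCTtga
Tubb3 (chr8:125945535-125945582, plus strand): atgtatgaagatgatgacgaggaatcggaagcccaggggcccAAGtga
Tubb5 (chr17:35971927-35971974, minus strand): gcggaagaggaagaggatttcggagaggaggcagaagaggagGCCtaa
Tubg1 (chr11:100987496-100987543, plus strand): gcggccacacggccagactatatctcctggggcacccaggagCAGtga
Tuba1c ends in a tyrosine codon (TAT), the residue that detyrosinating enzymes remove and tubulin tyrosine ligase restores. Tuba4a ends in a glutamate codon (GAG) and so encodes an α-tubulin without the terminal tyrosine. The ends of Tubb2a and Tubb2b carry the same GCT codon, whereas Tubb3, best known as the neuronal β-tubulin, ends in the lysine codon AAG.

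Transcripts were next cut into every possible word of 50 bases, and words that also occur in a protein-coding transcript of another gene were counted. The search covered the sense strand only. Of the 29955 genes of the expression table, 20059 had such a transcript, and the others were not searched. They made up 57.1% of Tuba1a, 64.6% of Tuba1b and 60.0% of Tuba1c, mostly shared among these 3 genes. Tubb2a shared 46.4% of its words and Tubb2b 38.0%, all with each other, and Tubg1 shared 13.9%, all with its paralog Tubg2. Tubb5 shared 0.116% and Tuba4a, Tubb3 and Tubb6 shared none. The handling of reads that match several genes is not given in the sources used here. The separate values of Tuba1a, Tuba1b and Tuba1c, and of Tubb2a and Tubb2b, are therefore uncertain. Tuba4a, Tubb3, Tubb5 and Tubb6 have little or no sequence of this length in common with the protein-coding transcripts searched. Sequence shared with genes that lack such a transcript, or with the opposite strand, was not measured.

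**Figure D1:**
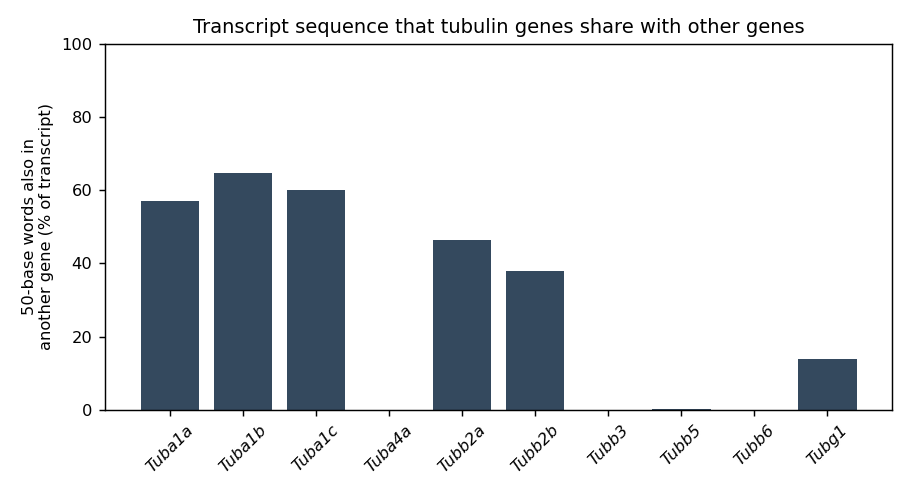
Share of 50-base words (%, y axis) in the annotated transcript of each of 10 tubulin genes (x axis). The words counted also occur in a protein-coding transcript of another gene, on the sense strand. Bars reach 57.1% to 64.6% for Tuba1a, Tuba1b and Tuba1c and 0 for Tuba4a, Tubb3 and Tubb6.

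The comparison asked how tubulin mRNA differed between MEFs with and without RNF40. Tuba4a, Tubb5, Tubb6, Tubb2a and Tuba1c fell in Rnf40-/- MEFs, Tuba4a to 34.0% of its level in controls and the abundant β genes Tubb5 and Tubb6 to 60.0% and 55.5%. No tubulin gene of the 10 rose, and all 10 had a lower mean in the knockout with the deposited scaling, although Tuba1a and Tuba1b turned to log2 fold changes of 0.018 and 0.031 when libraries were scaled to total reads on genes. At an adjusted p under 0.05, 5 of 10 were lower, where 24.1% of all genes tested were lower, and 0 of 10 were higher, where 23.3% of all genes were higher. The same 5 genes were those whose Rnf40-/- libraries all lay below all Rnf40+/+ libraries, which held for 28.7% of all genes tested. The isotypes had a median log2 fold change of -0.28, and all genes tested one of -0.0035. The study called genes by a mean normalized count over 15, an unadjusted p under 0.05 and a log2 fold change beyond 1 in size. Here these criteria were applied to the p and fold change of limma, which are not the study's own values. By them Tuba4a was the only one of the 10, and 5.70% of all genes were lower.

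Tuba4a showed the greatest difference of the 10. The control libraries held 1129, 1018 and 948 normalized counts of it, and the knockout libraries 376, 270 and 407. Every knockout library lay far below every control library, and the mean went from 1031 ± 91.1 to 351 ± 71.7 (SD, n = 3), or 34.0% of the control level. On the scale of log2(normalized count + 1), the change was -1.57 (SE 0.14, adjusted p = 2.59e-06, limma with Benjamini-Hochberg adjustment). Tuba4a (chr1:75211549-75215828, minus strand, mm9) overlaps the kinase gene Stk16 on the opposite strand by 633 bases. The library kit was directional but whether strand was used in counting was not stated, so reads from the overlap could belong to either gene. Stk16 was at 774 ± 59.4 normalized counts in Rnf40+/+ and 833 ± 54.7 in Rnf40-/- MEFs (SD, n = 3), with a log2 fold change of 0.11 (adjusted p = 0.330, limma).

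The remaining α genes, which make up most α-tubulin mRNA, differed little. Tuba1a, an isotype abundant in the developing nervous system and in fibroblasts, was at 16906, 16904 and 18024 normalized counts in Rnf40+/+ and 15874, 14867 and 17445 in Rnf40-/- libraries. The groups overlapped, and the log2 fold change was -0.11 (SE 0.07, adjusted p = 0.262, limma). Tuba1b, a widely expressed isotype, was at 11244, 10030 and 11204 against 9665, 9581 and 11209 normalized counts. Here the highest knockout library lay between the controls, with a log2 fold change of -0.09 (SE 0.08, adjusted p = 0.351, limma). Tuba1c, whose protein differs from that of Tuba1b mainly in the tail, was at 10576, 9030 and 9497 against 7939, 7626 and 8790 normalized counts. These groups did not overlap, although the highest knockout library came close to the lowest control, and Tuba1c fell by 0.26 on the log2 scale (SE 0.08, adjusted p = 0.0176, limma). The call was lost without Rnf40+/+ replicate 1 (log2 fold change -0.19, adjusted p = 0.0668), without Rnf40-/- replicate 1 (-0.24, adjusted p = 0.0764), without Rnf40-/- replicate 2 (-0.21, adjusted p = 0.0906) and with libraries scaled to total reads on genes (-0.13, adjusted p = 0.193, all limma). The sum of Tuba1a, Tuba1b and Tuba1c per kilobase, which depends little on how shared reads were divided among them, was 21609 ± 888 in Rnf40+/+ and 19683 ± 1600.03 in Rnf40-/- MEFs (SD, n = 3), and the ranges of the libraries overlapped.

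Among the β genes, Tubb5, the isotype that predominates in most dividing cells, was the most abundant. Its level was 20603, 19672 and 20947 normalized counts in Rnf40+/+ libraries and 11969, 11677 and 13079 in Rnf40-/- libraries. The genotypes were clearly separated, with 60.0% of the control mean left and a log2 fold change of -0.74 (SE 0.07, adjusted p = 4.86e-06, limma). Tubb6, a divergent β isotype found in many non-neuronal tissues, was at 5675, 5217 and 4861 against 2719, 2859 and 3157 normalized counts. It too was lower in every knockout library, at 55.5% of the control mean, and fell by 0.85 on the log2 scale (SE 0.08, adjusted p = 3.74e-06, limma).

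The near-identical pair Tubb2a and Tubb2b, both prominent in neurons, gave different calls. Tubb2a was at 2898, 2559 and 2910 normalized counts in Rnf40+/+ and 2215, 2121 and 2236 in Rnf40-/- libraries. It was lower in every knockout library and fell by 0.35 on the log2 scale (SE 0.07, adjusted p = 0.00146, limma). Tubb2b was at 2812, 2599 and 3033 against 2588, 2362 and 2630 normalized counts. Its groups overlapped and it was not called (log2 fold change -0.15, SE 0.07, adjusted p = 0.107, limma). The difference between the changes of these genes was not tested. Their sum per kilobase was 3293, 2968 and 3415 in Rnf40+/+ and 2745, 2568 and 2780 in Rnf40-/- libraries, with no overlap between genotypes and 83.6% of the control mean left.

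Tubb3 was at 2670, 1275 and 1353 normalized counts in Rnf40+/+ and 1280, 1277 and 1477 in Rnf40-/- libraries. A single control library, replicate 1, was over all the others, which lay close together in both genotypes. The log2 fold change was -0.31 (SE 0.21, adjusted p = 0.252) with this library and 0.03 (adjusted p = 0.800, limma) without it. In the same library the synaptic genes Syt1 and Snap25 were at 115 and 39.4 normalized counts, against 0.799 to 15.1 and 2.04 to 9.18 in the other 5 libraries. None of the remaining neuron markers had its highest control value there: Gap43 was at 283 in that library and 367 and 446 in the other controls, Syn1 at 124 against 135 and 79.1, and Nefm at 16.7 against 26.5 and 16.0. Between genotypes, Nefm was higher (log2 fold change 1.09, adjusted p = 0.00874) and Gap43 lower (-0.90, adjusted p = 0.00102, limma). The neuron marker Rbfox3 did not exceed 1.60 in any library. The summed level of 10 neuron markers was 572 to 602 in Rnf40+/+ and 314 to 440 in Rnf40-/- libraries. Gap43 was the largest part of this sum, with means of 366 in Rnf40+/+ and 194 in Rnf40-/- MEFs. The part of neuronal RNA in the Tubb3 value was not tested.

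Tubg1, the main γ-tubulin gene, was at 825, 565 and 602 normalized counts in Rnf40+/+ and 599.6, 489 and 649.6 in Rnf40-/- libraries. The groups overlapped and replicate 1 of the controls was again the highest. The log2 fold change was -0.19 (SE 0.14, adjusted p = 0.308) with it and -0.02 (adjusted p = 0.912, limma) without it.

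**Figure D2:**
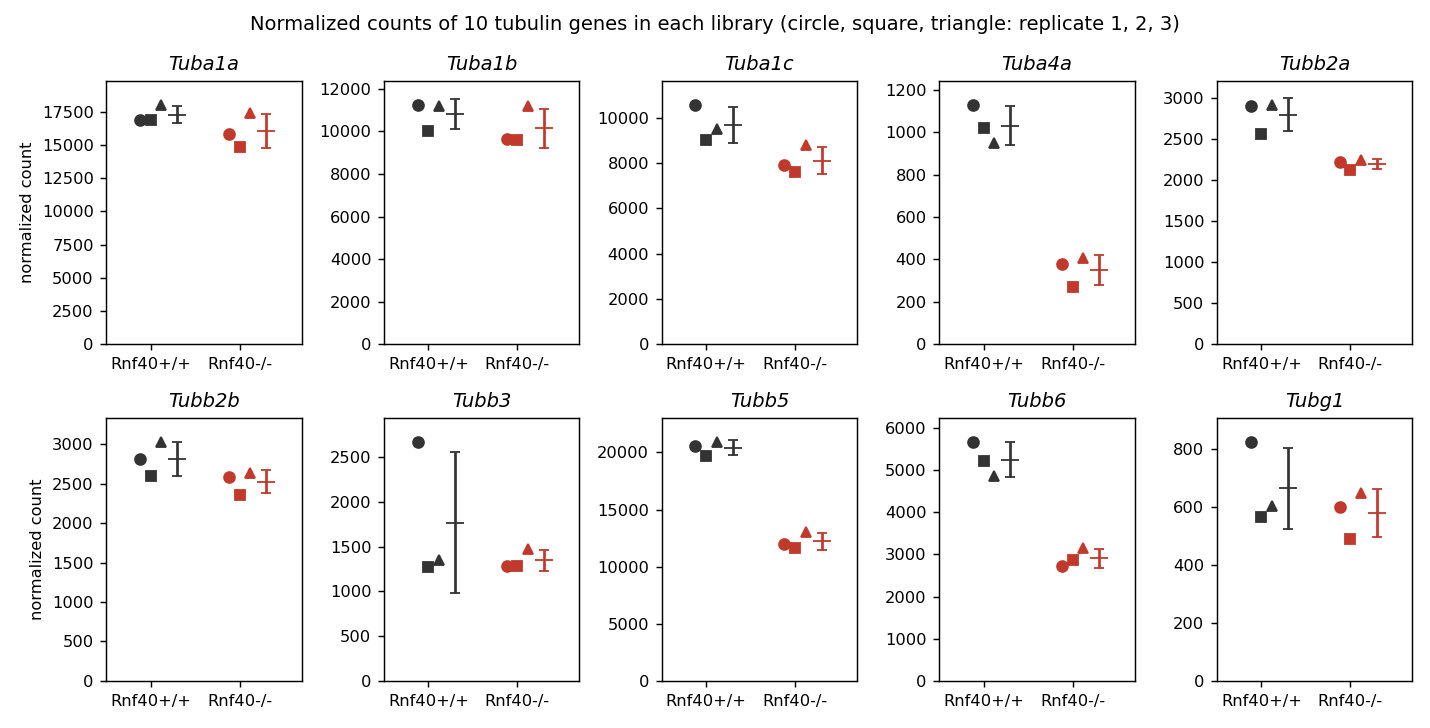
Normalized counts (y axis, from 0, scaled per gene) of 10 tubulin genes in each Rnf40+/+ (black) and Rnf40-/- (red) library; circle, square and triangle are replicates 1, 2 and 3, and the bar beside them is the mean ± SD (n = 3). Tuba4a, Tubb5 and Tubb6 show the widest gaps between genotypes, and Tubb3 has 1 high control library at 2670.

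**Figure D3:**
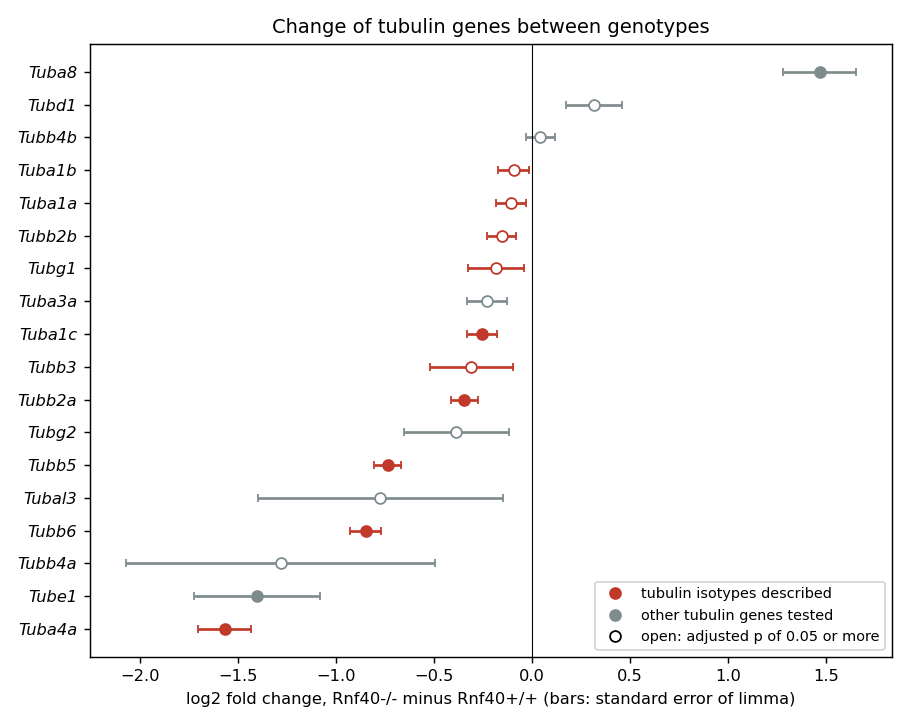
Log2 fold change between Rnf40-/- and Rnf40+/+ MEFs (x axis) with the standard error of limma for the 10 tubulin isotypes (red) and 8 other tubulin genes tested (grey), ordered by fold change. Filled points had an adjusted p under 0.05, and values run from -1.57 for Tuba4a to 1.47 for Tuba8.

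Levels of different genes were compared per kilobase of annotated transcript. In Rnf40+/+ MEFs the normalized count per kilobase was 10490.5 ± 393 for Tuba1a, 7718 ± 249 for Tubb5, 6211 ± 395 for Tuba1b, 4907 ± 401 for Tuba1c and 2989 ± 232 for Tubb6 (SD, n = 3). It was 1761 ± 126 for Tubb2a, 1465 ± 113 for Tubb2b, 945 ± 420 for Tubb3, 502 ± 44.4 for Tuba4a and 369 ± 78.1 for Tubg1. Of the neighbours in this order of the 10 isotypes, Tubb2b and Tubb3 alone overlapped between libraries. This rested on Rnf40+/+ replicate 1, without which these genes did not overlap. The places of Tuba1a, Tuba1b, Tuba1c, Tubb2a and Tubb2b are uncertain in both genotypes, as the handling of their shared reads is not known. In Rnf40-/- MEFs the per-kilobase level of Tubb5 was 4630 ± 280, below that of Tuba1b at 5824 ± 526 and overlapping that of Tuba1c at 4106 ± 305. Tubb2a at 1383 ± 38.7 and Tubb2b at 1314 ± 75.0 also overlapped there. Tuba4a, at 171 ± 34.9, lay below Tubg1 at 322 ± 45.5, the reverse of their order in the controls.

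Summed over the 8 α-tubulin genes of the table, the normalized count per kilobase was 26427, 23931 and 25472 in Rnf40+/+ and 22018, 21122 and 24583 in Rnf40-/- libraries. The α ranges overlapped, and 89.3% of the control mean was left. The sum over the 8 β-tubulin genes was 19272, 17151 and 17695 in Rnf40+/+ and 12673, 12240 and 13702 in Rnf40-/- libraries. The β sums did not overlap between genotypes, and 71.4% of the control mean was left. Without Tubb5 and Tubb6, the sum of the other 6 β genes kept 89.8% of the control mean. This sum was 8250, 6741 and 7006 in Rnf40+/+ and 6598, 6197 and 6958 in Rnf40-/- libraries. The ranges overlapped, and Rnf40+/+ replicate 1 stood well above the other controls. In these bulk samples, fewer cells of a type and less RNA per cell cannot be told apart.

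The make-up of β-tubulin mRNA differed accordingly. Tubb5 made up 42.9% ± 2.22 of β-tubulin counts per kilobase in Rnf40+/+ and 36.0% ± 0.215 in Rnf40-/- MEFs, and Tubb6 16.6% ± 0.855 and 12.9% ± 0.578 (SD, n = 3). The share of Tubb4b, a widely expressed β isotype also used in cilia, was 17.0% ± 0.881 in the controls and 24.5% ± 0.496 in the knockout. Its normalized counts were 4888 ± 321 and 5033 ± 356. Beside this larger share, its log2 fold change was 0.04 (adjusted p = 0.667) with Rnf40+/+ replicate 3 and -0.007 (adjusted p = 0.947, limma) without it. Among α genes, Tuba4a made up 1.99% ± 0.152 and 0.754% ± 0.114, and Tuba1a 41.6% ± 2.36 and 43.2% ± 0.529.

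**Figure D4:**
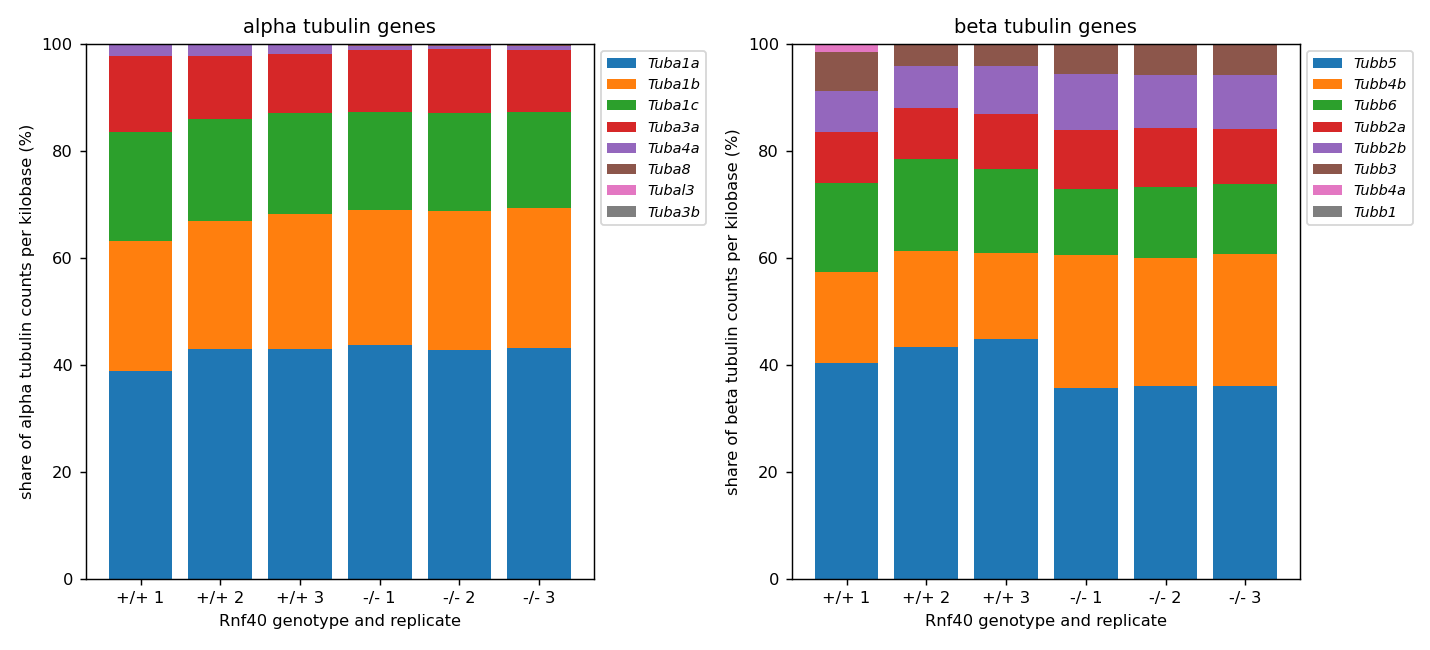
Share of each isotype (%, y axis) in the summed normalized counts per kilobase of α-tubulin (left) and β-tubulin (right) genes in each library (x axis). In the β panel the Tubb5 segment covers 40.4% to 44.8% in Rnf40+/+ and 35.7% to 36.1% in Rnf40-/- libraries.

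The table holds 10 other tubulin genes, of which 8 were tested, 1 was higher and 1 lower (all genes, 23.3% and 24.1%). Their median log2 fold change was -0.31. This median lies between the values of Tuba3a and Tubg2, which both moved toward 0 without Rnf40+/+ replicate 1, as given below. Tuba8, an α isotype best known from testis and muscle, rose from 70.5, 52.0 and 51.9 normalized counts to 159, 141 and 185. Its log2 fold change was 1.47 (SE 0.19, adjusted p = 5.19e-05, limma), and it passed the study's criteria for higher genes, as did 4.25% of all genes and none of the 10 isotypes. Tube1, the ε-tubulin of centrioles, fell from 49.0, 40.8 and 43.1 to 17.3, 10.4 and 22.7 normalized counts, with a log2 fold change of -1.40 (SE 0.32, adjusted p = 0.00344, limma). The other 6 were not called in the main comparison, but the calls of Tuba3a, Tubb4a and Tubd1 depended on the processing. Tubb4a was at 583 in Rnf40+/+ replicate 1 and at 28.7 to 51.0 in the other 5 libraries, with a log2 fold change of -1.28 (adjusted p = 0.204) with that library and 0.01 (adjusted p = 0.974, limma) without it. It was called lower without Rnf40+/+ replicate 3 (-2.13, adjusted p = 0.0137, limma), with a replicate block (adjusted p = 0.0470, limma) and by edgeR (-2.48, adjusted p = 0.0439). Tubg2 was at 466 in replicate 1 and 181 to 212 in the other 5, with a log2 fold change of -0.39 (adjusted p = 0.260) with that library and 0.03 (adjusted p = 0.873, limma) without it. Tuba3a had a log2 fold change of -0.23 (adjusted p = 0.0837) with replicate 1 and -0.09 (adjusted p = 0.341, limma) without it. It was called lower without replicate 3 (-0.30, adjusted p = 0.0208, limma), with a replicate block (adjusted p = 0.0349, limma) and by DESeq2 (adjusted p = 0.0477). Tubd1, the δ-tubulin of centrioles, was at 0.32 (adjusted p = 0.0860), and at 0.44 (adjusted p = 0.0198, limma) with scaling to total reads on genes. Tubal3 was at -0.78 (adjusted p = 0.334, limma).

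The 3 genes with values across the 6 libraries most like those of Tuba4a were found by the root mean square distance of log2 values relative to the control mean among 15489 genes. These were 1110013L07Rik at a distance of 0.112, the galactosyltransferase gene B4galt2 at 0.134 and the zinc finger gene Zfp467 at 0.136. B4galt2 was at 1189, 1142 and 1107 normalized counts in Rnf40+/+ and 439, 357 and 513 in Rnf40-/- libraries. The knockout replicates had the same order as for Tuba4a, which the choice by likeness over these same libraries favours.

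The promoters of 7 of the 10 isotypes, the 250 bases before the start site, were taken from RefSeq (GRCm38.p6). They were searched on both strands for CCAAT, the box bound by NF-Y, for TATAA, and for TTTGAA or its variant TTCGAA, the core of the cell cycle homology region. The CCAAT box was present in 4 of the 7, where 33.8% of 32851 windows of the same length had it. The other motifs were present in 3 of the 7 (TATAA, in 22.8% of all windows) and in 0 of the 7 (TTTGAA or TTCGAA, in 17.1% of all windows). The windows of Tubb2b, Tubb6 and Tubg1 are not reported here, although Tubb6 fell more than Tubb5. Of the 7, Tubb5 and Tuba4a are the isotypes with little shared sequence that fell most. Their promoters are given with CCAAT in capitals.
Tubb5 (chr17:35838302-35838551, minus strand): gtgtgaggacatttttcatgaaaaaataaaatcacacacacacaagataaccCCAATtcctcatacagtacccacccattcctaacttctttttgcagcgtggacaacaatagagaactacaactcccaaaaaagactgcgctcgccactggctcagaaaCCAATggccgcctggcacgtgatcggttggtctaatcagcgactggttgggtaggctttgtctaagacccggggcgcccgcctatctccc
Tuba4a (chr1:75219295-75219544, minus strand): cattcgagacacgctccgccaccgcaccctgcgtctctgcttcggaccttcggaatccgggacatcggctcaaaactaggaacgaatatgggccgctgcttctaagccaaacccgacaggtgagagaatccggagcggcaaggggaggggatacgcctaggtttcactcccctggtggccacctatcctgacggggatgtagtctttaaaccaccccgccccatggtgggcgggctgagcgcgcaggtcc
The Tubb5 window held CCAAT at 2 places, and the Tuba4a window held none of these letters.

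Genes that fold, modify or bind tubulin were followed in 10 lists, which held 90 genes with the other tubulin genes included. Of the 85 tested, 20 were higher, 18 were lower and 47 were not called, shares near the 23.3% higher and 24.1% lower among all genes tested. Among the chaperones that fold new tubulin, the CCT chaperonin and prefoldin, 6 of 14 were higher and 1 lower (all genes, 23.3% and 24.1%), with a median log2 fold change of 0.14. Cct7 rose by 0.47 (adjusted p = 0.000202) and Cct5 by 0.29 (adjusted p = 0.00296), and Tcp1, also a chaperonin subunit, fell by 0.21 (adjusted p = 0.0245, limma). Of 7 cofactors that assemble or take apart the heterodimer, 2 were higher and 1 lower. Tbcel, which destabilizes tubulin, rose by 0.69 (adjusted p = 3.65e-05), and Arl2, a small GTPase that works with these cofactors, fell by 0.50 (adjusted p = 0.00219, limma).

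Of 11 genes of the γ-tubulin ring complex and its recruitment, 4 were higher and 3 lower (all genes, 23.3% and 24.1%). The ring subunit Tubgcp3 rose by 0.42 on the log2 scale (adjusted p = 0.00299), and the centrosomal recruiter Cdk5rap2 fell by 0.42 (adjusted p = 0.00498, limma). Of 5 genes that remove or restore the terminal tyrosine of α-tubulin, 2 were lower and both encode detyrosinating enzymes: Vash2 fell by 0.82 (adjusted p = 0.00015) and Matcap1, listed as 4931428F04Rik, by 0.80 (adjusted p = 0.000896, limma). The detyrosinating enzyme Vash1 was not called, with a log2 fold change of 0.42 (adjusted p = 0.377, limma). The tyrosine ligase Ttl had a log2 fold change of 0.09 (adjusted p = 0.416, limma). Of 3 acetylation genes, the deacetylase Sirt2 rose by 0.64 (adjusted p = 9.57e-06), and of 9 polyglutamylation genes tested, the deglutamylase Agtpbp1 alone was called, with a rise of 0.69 (adjusted p = 1.66e-05, limma).

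Among 16 microtubule-associated and end-binding proteins, 3 were higher and 6 lower (all genes, 23.3% and 24.1%). Prc1, which bundles the midzone of the spindle, fell by 2.29 (adjusted p = 5.88e-08) and the spindle assembly factor Tpx2 fell by 1.91 (adjusted p = 5.89e-08, limma). Of 10 destabilizing and severing proteins tested, 2 were higher and 4 lower, led by the mitotic depolymerase Kif2c, which fell by 3.41 (adjusted p = 6.48e-07), and the severing enzyme Fignl1, which fell by 2.19 (adjusted p = 3.69e-05, limma). Ttc5 and Scaper, which act in the decay of tubulin mRNA when free tubulin is abundant, were not called, with log2 fold changes of 0.18 (adjusted p = 0.112) and 0.04 (adjusted p = 0.786, limma).

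**Figure D5:**
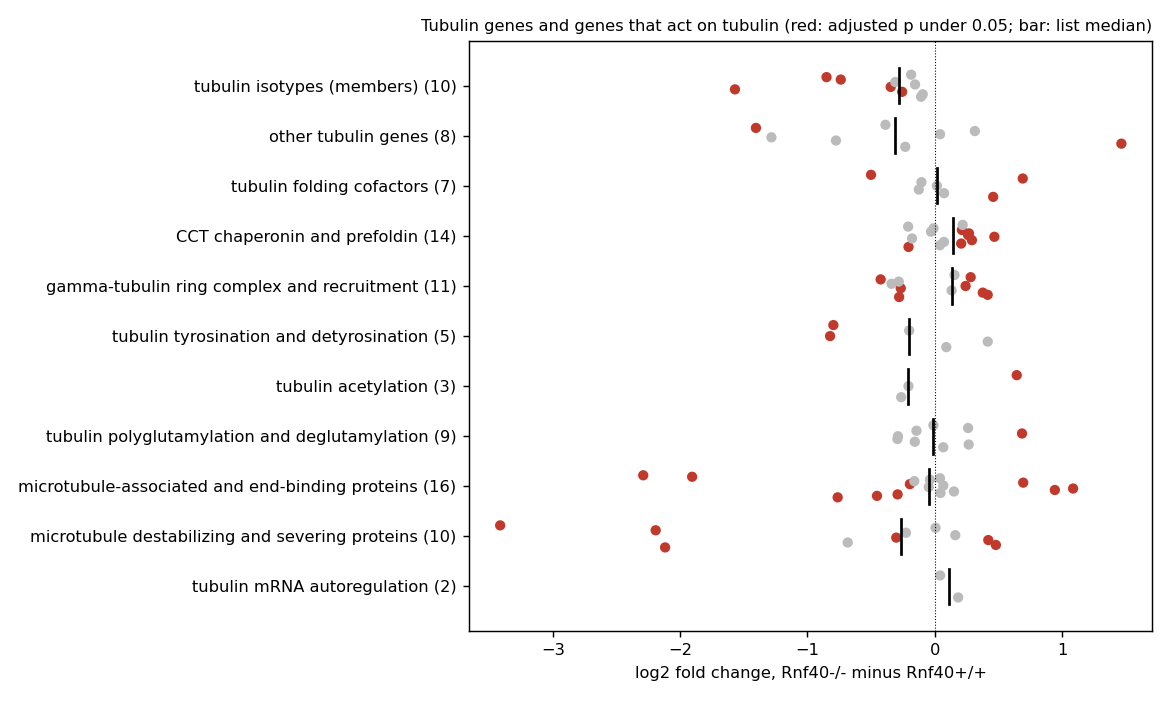
Log2 fold change between Rnf40-/- and Rnf40+/+ MEFs (x axis) of each tested gene in the 10 tubulin isotypes and 10 related lists (rows, number of genes in brackets); red points had an adjusted p under 0.05 and black bars are list medians. The median is -0.28 for the isotypes and 0.14 for the CCT chaperonin and prefoldin list.

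Cell cycle and cell type markers moved with genotype as well. All 8 proliferation markers were lower, where 24.1% of all genes were, with a median log2 fold change of -2.69 and summed levels of 5158 to 6140 normalized counts in Rnf40+/+ and 1686 to 1830 in Rnf40-/- libraries. The summed level of 10 fibroblast markers was 669465 to 741504 against 400462 to 403413. Of 7 macrophage markers tested 2 were higher and 1 lower (all genes, 23.3% and 24.1%), with sums of the list of 5393 to 9170.0 in Rnf40+/+ and 3525 to 3861 in Rnf40-/- libraries. Most of this sum was Lyz2, the marker called lower, with means of 5314 in Rnf40+/+ and 2264 in Rnf40-/- MEFs. The markers called higher were Ptprc (means of 62.6 and 160) and Cd14 (113 and 181). Of 4 epithelial and endothelial markers tested 3 were higher (all genes, 23.3%), with sums of 63.2 to 115 against 137 to 234. These 3 were the endothelial genes Pecam1, Cdh5 and Kdr. The epithelial gene Krt18, the other 1 tested, was not called (log2 fold change -0.51, adjusted p = 0.276, limma). Of 3 skeletal muscle markers tested 2 were lower, with summed levels of the list of 1812 to 4987 against 571 to 625. Most of this sum was Acta1, with means of 2648 in Rnf40+/+ and 434 in Rnf40-/- MEFs, and Myod1 was at 0 in every library. The part of these differences in the tubulin values was not tested.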

How the data were processed

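RNA-seq libraries of 3 Rnf40+/+ and 3 Rnf40-/- MEF samples were analysed from the deposited table of 1 signal value per gene and library. The authors mapped reads to the mouse mm9 reference transcriptome and normalized counts with DESeq, and the submitters' processing notes name Bowtie2 2.1.0 and DESeq 1.14.0. The counting tool, its use of strand and its handling of shared reads are not given in the sources used here. The deposited signal of a gene was its reads divided by a size factor (0.837 to 1.25), and 100% of values were whole reads within 0.02. All 6 sample columns were used, with 0 left unused. A level of 3 reads corresponded to 2.40 to 3.58 normalized counts.

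Genes were filtered with filterByExpr of edgeR 4.0.16 on the recovered reads. limma 3.58.1 (R 4.3.3, lmFit and eBayes with a trend) was run on log2(normalized count + 1) with no covariate beside genotype and p-values adjusted by Benjamini-Hochberg across the 16378 genes, and was tested on simulated data. This scale slightly understates changes of low genes. DESeq2 1.42.0, edgeR, other scalings, filters, pseudocounts, a replicate block and leaving out each library were alternatives. No 2 libraries differed by less than sampling noise. With 3 libraries a group, exact permutation of a single value reaches at best p = 0.1 and was not used. Positions and coding ends come from GENCODE on mm9, and promoters from RefSeq on GRCm38.p6. Some coding ends are not reported here.

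The members, gene lists and markers were chosen with earlier results of these data known. Named genes were all 10 isotypes, the tested other tubulin genes, the 2 called genes of greatest change in each pathway list (marker lists are given by counts and ranges), Rnf40, and the 3 genes most like the isotype of greatest fall. Other genes (Stk16, Tcp1, Ttl, Vash1, Ttc5, Scaper and single markers) were named after their values were seen.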

Additional observations from a re-analysis of the deposited data

How the results depend on the processing

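Over 17 alternatives, the number of the 10 isotypes lower in Rnf40-/- MEFs was 4 to 6 and the number higher was 0. Of 170 values of single isotypes, 162 kept their direction and their side of the threshold, 4 lost the call, 1 gained it and 3 turned direction. Tuba4a (-1.69 to -1.39), Tubb5 (-0.79 to -0.61), Tubb6 (-0.91 to -0.72) and Tubb2a (-0.41 to -0.22, largest adjusted p 0.0229) stayed lower and called under every alternative. Leaving out each library gave 4 to 6 lower isotypes, 6 without Rnf40+/+ replicate 2, where Tubb2b was called (-0.21, adjusted p = 0.0435, limma). The log2 fold change of Tubb3 ran from -0.50 to 0.031 when each library was left out, the latter without Rnf40+/+ replicate 1. Without a minimum fold change, 5 isotypes instead of 1 passed the study's criteria.

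Scaling to total reads on genes, an alternative chosen after seeing the data, moved the median of all genes to 0.12, with 5197 genes higher and 2955 lower against 3809 and 3955. Tuba1a and Tuba1b were then at 0.018 and 0.031, and Tuba1c lost its call (-0.13, adjusted p = 0.193, limma). The replicate numbers share no stated origin, and same-numbered libraries deviated with correlations of 0.012, 0.017 and 0.021. With a replicate block, 5 isotypes were lower and 0 higher, and 4021 genes were higher and 4196 lower in all. The α and β sums kept their direction under all 7 alternatives each, which were no division by length and leaving out each library. The sums were not tried with scaling to total reads on genes or with any other scaling.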

Other observations

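A row with the lower-case symbol tubg1 stands beside Tubg1 in the table and was not taken as an isotype. It was at 78.8, 20.4 and 27.2 normalized counts in Rnf40+/+ and 26.5, 28.2 and 17.9 in Rnf40-/- libraries, with Rnf40+/+ replicate 1 the highest, as for Tubg1 and Tubg2. Among the other tubulin genes, 2 had too few reads to be tested. Tuba3b was at 17.9 normalized counts in Rnf40+/+ replicate 1 and at 0 to 4.17 in the other 5 libraries, and Tubb1, the platelet β-tubulin, was at 14.3 there and at 0 to 1.02 in the other 5.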
